A study of Rattus norvegicus and Mus musculus with 56 samples.

Results

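The lysosomal genes described here are 37 mouse genes: cathepsins and other lysosomal proteases, glycosidases, lipid-handling proteins, membrane proteins of the lysosome, the lysosomal protein progranulin and the transcription factor Tfeb. They were taken from a given list of gene symbols, matched to Ensembl mouse identifiers, and all 37 were found among the 41388 gene identifiers counted. The study compared spared nerve injury (SNI) with sham surgery in mice and rats by RNA sequencing of the L4 to L5 dorsal horn, the part of the lumbar spinal cord that receives sensory input from the hind limb. In SNI, branches of the sciatic nerve are cut while a remaining branch is left intact, which gives lasting hypersensitivity of the paw. Of 56 libraries, 24 came from wild-type C57BL/6 mice and are used here. They comprised SNI and sham surgery at postoperative day 7, the ipsilateral (operated) and the contralateral side, and females and males, with 3 libraries in each of the 8 combinations. The labels give no age and do not tie libraries to animals, so p-values measure the spread between libraries.

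Lysosomes are acidic organelles in which cathepsins cut proteins, glycosidases remove sugars from glycoproteins and glycolipids, and lipases and their activator proteins break down lipids. Membrane glycoproteins line the organelle, and the transcription factor Tfeb is known as a master regulator of lysosomal genes. In the spinal cord neurons and glia have lysosomes, and phagocytic cells such as microglia are known to be rich in them. Cathepsin S has been studied in dorsal horn microglia after nerve injury, where it releases soluble fractalkine.

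The reads assigned to genes numbered 27.98 M to 42.9 M per mouse library (M, 1000000), with a median of 32.6 M. Levels are given as counts per 1000000 reads on genes (CPM), after scaling between libraries. Summed levels of microglia markers were 775.6 to 1216.5 CPM in ipsilateral SNI libraries and 476.0 to 578.2 CPM in ipsilateral sham libraries, with none of the 17 markers at 0, and 16 of the 17 rose (median log2 fold change 1.11). Markers of border macrophages and monocytes summed to 16.3 to 36.2 CPM after SNI and 15.8 to 28.5 CPM after sham, and 0 of 11 tested were called. Neutrophil markers reached 201.8 CPM in the sham ipsilateral female replicate 1 library, against 1.81 to 46.6 CPM in the SNI and 3.06 to 30.2 CPM in the other sham ipsilateral libraries. Contralaterally they reached 230.2 CPM in SNI male replicate 3, against 4.14 to 19.4 CPM in sham libraries. Border macrophage and monocyte markers in that SNI library summed to 46.2 CPM. It was left out in turn in the side comparisons, but not in the contralateral comparison of SNI with sham. Neuronal, astrocyte and oligodendrocyte markers were present in every library. Motor neuron markers, which mark the ventral horn, were present as well, at 92.3 to 380.8 CPM after SNI and 158.4 to 445.2 CPM after sham ipsilaterally. In bulk tissue, more cells of a type and more RNA per cell cannot be told apart.

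On the ipsilateral side, 13 of the 37 lysosomal genes rose after SNI and 0 fell, with 24 not called. The 13 were led by Ctss (cathepsin S), Laptm5 (a lysosomal membrane protein of immune cells), Grn (progranulin) and Cd68 (macrosialin, a lysosomal membrane glycoprotein of phagocytes). Over all 17602 genes tested, 1.94% were called higher and 0.131% lower. The median log2 fold change was 0.09 over the 37 genes and -0.003 over all genes. A gene was called where limma's Benjamini-Hochberg adjusted p, taken over all genes tested, was under 0.05, with 6 SNI and 6 sham libraries. Among the 13 called genes the median log2 fold change was 0.41, with a range of 0.20 to 1.31. Among the 24 not called it was 0.04, and 22 of these lay within 0.15 of 0. All 37 genes passed the filter on low counts.

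**Figure D1:**
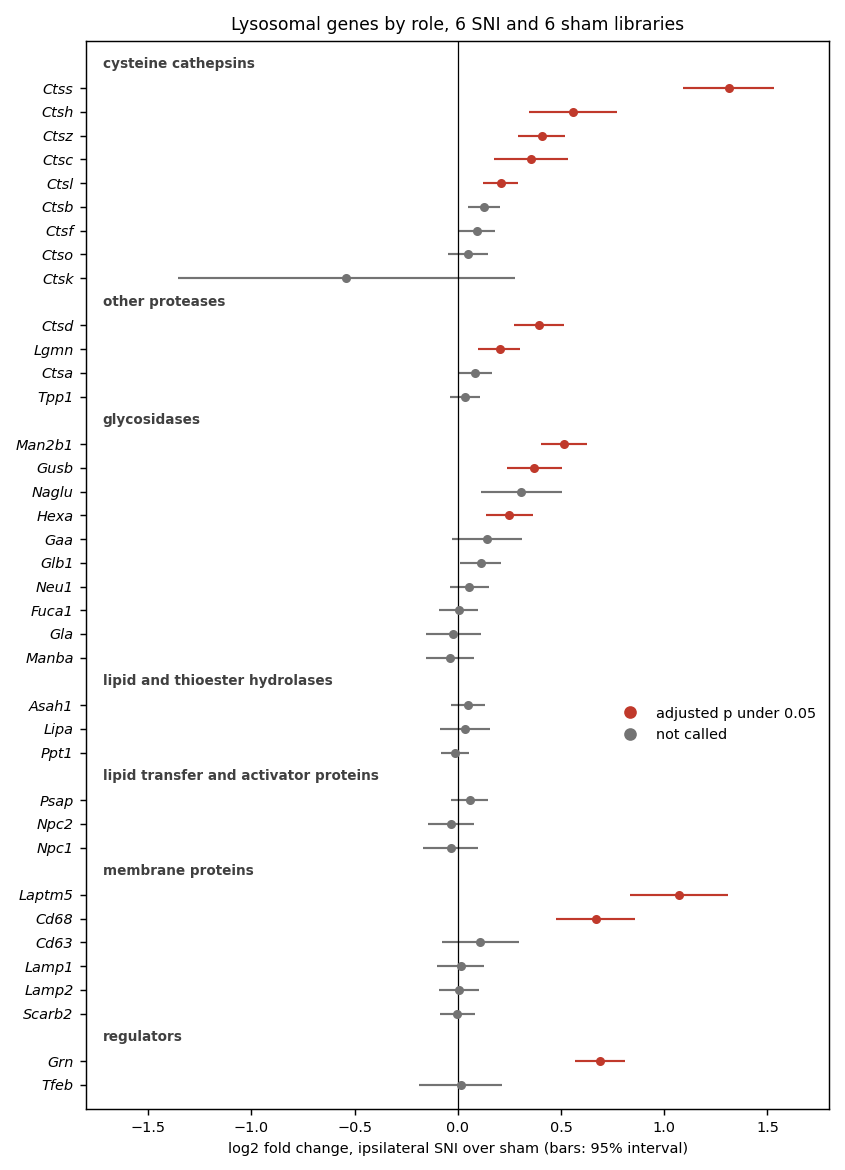
Log2 fold change of each of the 37 lysosomal genes, ipsilateral SNI over sham, in 6 SNI and 6 sham mouse libraries, grouped by role, with 95% intervals from limma. Red points mark the 13 genes with an adjusted p under 0.05, which lie between 0.20 and 1.31; the lipid hydrolases and the lipid transfer and activator proteins have no red point, and Ctsk has the widest interval.

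Of the 9 cysteine cathepsins, papain-like proteases whose catalytic residue is a cysteine, 5 rose: Ctss, Ctsh, Ctsz, Ctsc and Ctsl. The 57 coding bases around the codon of that cysteine, in capitals, are shown for 6 of them, 4 that rose (Ctss, Ctsh, Ctsz, Ctsl) and 2 that were not called (Ctsb, Ctsk), because these genes share this site and a reader can see how far their sequences, and so their reads, differ. They are taken 5′ to 3′ from GENCODE M21 transcripts (GRCm38).
Ctss: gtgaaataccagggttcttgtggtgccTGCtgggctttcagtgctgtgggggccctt
Ctsh: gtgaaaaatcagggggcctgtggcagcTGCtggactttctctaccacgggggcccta
Ctsz: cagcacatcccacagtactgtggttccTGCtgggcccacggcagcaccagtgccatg
Ctsl: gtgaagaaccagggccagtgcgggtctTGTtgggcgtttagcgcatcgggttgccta
Ctsb: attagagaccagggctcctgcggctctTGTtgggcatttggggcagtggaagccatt
Ctsk: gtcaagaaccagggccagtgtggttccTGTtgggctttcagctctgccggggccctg
Ctsk, the collagen-cleaving cathepsin known from osteoclasts, lies beside Ctss on chromosome 3 (Ctsk at chr3:95499256-95509362 and Ctss at chr3:95526786-95556403, both on the plus strand of GRCm38) and matched it at 43 of these 57 bases, the most of the 8 other cysteine cathepsins. Ctsz matched it at 28. Over whole coding sequences the 36 pairs of cysteine cathepsins were identical at 58.5% to 70.8% of aligned bases, and the longest run of bases shared by any pair was 18.

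Ctss encodes cathepsin S, a protease of antigen-presenting cells that also trims the invariant chain of MHC class II. In ipsilateral SNI libraries Ctss had 111.8, 156.6 and 131.9 CPM in females and 182.1, 151.0 and 169.9 CPM in males, against 59.5, 59.2 and 48.9 CPM in sham females and 56.8, 77.7 and 60.1 CPM in sham males. Every SNI library was above every sham library. The log2 fold change was 1.31 (SE 0.10, adjusted p = 1.8e-05 by limma), a fold of 2.48. In CPM per kb of transcript, which allows genes to be compared, Ctss was the sixth highest of the 37 genes in SNI and the 10th highest in sham libraries, at 111.1 and 44.6 CPM per kb.

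Ctsh encodes cathepsin H, an aminopeptidase. It had 19.6, 22.8 and 17.8 CPM in SNI females and 22.6, 21.3 and 27.1 CPM in SNI males, against 15, 14 and 14.9 CPM in sham females and 13.5, 19 and 12.7 CPM in sham males. Sham male replicate 2, at 19 CPM, stood above the lowest SNI library, and the other sham libraries lay below all SNI libraries. The log2 fold change was 0.56 (SE 0.10, adjusted p = 0.00647 by limma). Ctsz encodes cathepsin Z, a carboxypeptidase, and had 42, 52.5 and 47.2 CPM in SNI females and 54.4, 55.6 and 54.6 CPM in SNI males, against 39.9, 39.2 and 35.7 CPM in sham females and 36.2, 39 and 40.1 CPM in sham males. The lowest SNI library, female replicate 1, was above the highest sham library. Ctsz rose by 0.41 on the log2 scale (SE 0.05, adjusted p = 3.9e-04 by limma).

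Ctsc and Ctsl rose by less. Ctsc, which encodes dipeptidyl peptidase 1, the activator of immune serine proteases, had 17.3 to 23.7 CPM after SNI and 13.6 to 18.7 CPM after sham, and rose by 0.36 (adjusted p = 0.0430 by limma). This call was lost in 9 of 12 fits without 1 library, with log2 fold changes of 0.30 to 0.41. Ctsl, a broad endopeptidase, had medians of 105.9 CPM after SNI (lowest 96.3, highest 114.3 CPM) and 92.0 CPM after sham (lowest 84.2 CPM) and rose by 0.21 (adjusted p = 0.00901 by limma). The highest sham library lay above the lowest SNI library of Ctsl, so the groups overlapped. Ctsb, the most abundant cysteine cathepsin per length, had 667.1 to 751.1 CPM after SNI and 640.0 to 671.3 CPM after sham. Its log2 fold change of 0.13 (95% interval 0.05 to 0.21) was not called (adjusted p = 0.119 by limma), and 12.8% of its exon bases overlap Fdft1 on the opposite strand. Ctsf had a log2 fold change of 0.09 and Ctso of 0.05.

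Ctsk was the gene with the lowest log2 fold change of the 37, at -0.54 (SE 0.36, adjusted p = 0.604 by limma), and it was not called. It had 6.45, 8.05 and 6.15 CPM in SNI females and 8.28, 8.40 and 10 CPM in SNI males, against 35.2, 8.46 and 7.25 CPM in sham females and 10.2, 9.90 and 9.68 CPM in sham males. The sham female replicate 1 library stood apart from the other 11 libraries of this side. Without it the log2 fold change was -0.18. That library also held the 201.8 CPM of neutrophil markers and 32.1 CPM of Acp5, the tartrate-resistant acid phosphatase that is known, like Ctsk, from osteoclasts; Acp5 was at 0.178 to 0.751 CPM in the SNI libraries and 0.193 to 0.594 CPM in the other sham libraries of this side.

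**Figure D2:**
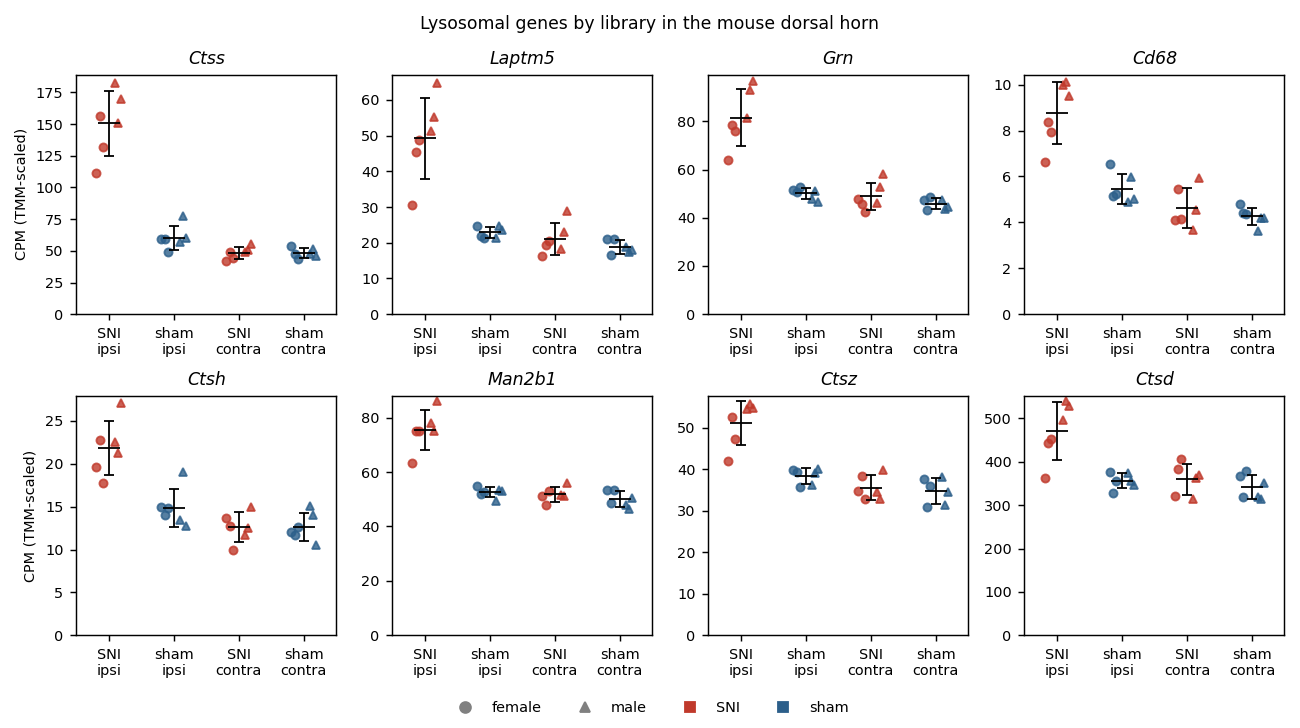
CPM by library of the 8 called lysosomal genes with the largest log2 fold changes, in 6 libraries for each surgery and side (circles female, triangles male; black bars are the mean and SD, n = 6). Ipsilateral SNI libraries stand above ipsilateral sham libraries without overlap in 6 panels, while Ctsh and Ctsd overlap, and the contralateral SNI and sham libraries overlap in every panel.

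Of the 4 other proteases, Ctsd and Lgmn rose. Ctsd encodes cathepsin D, the main aspartic protease of the lysosome, and was the third by level per length among the 37 genes. It had 363.3, 443.5 and 451.8 CPM in SNI females and 497.3, 541.2 and 529.6 CPM in SNI males, against 376.9, 328.7 and 355.1 CPM in sham females and 373.3, 355.9 and 347.0 CPM in sham males. SNI female replicate 1 lay within the sham range, and the other 5 SNI libraries lay above it. The log2 fold change was 0.39 (SE 0.06, adjusted p = 9.4e-04 by limma). Lgmn encodes legumain, which cleaves after asparagine, and had 173.1 to 231.7 CPM after SNI and 167.6 to 189.6 CPM after sham, a log2 fold change of 0.20 (adjusted p = 0.0399 by limma). It kept its call in 2 of 12 fits without 1 library. Ctsa, the protective protein of the neuraminidase complex, had a log2 fold change of 0.08, and Tpp1, a tripeptidyl peptidase, of 0.04. Of the exon bases of Ctsa, 17.4% overlap Pltp or Neurl2 on the opposite strand.

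Of the 10 glycosidases, 3 rose: Man2b1, Gusb and Hexa. Man2b1 encodes the lysosomal alpha-mannosidase and had 63.4, 75.2 and 75.1 CPM in SNI females and 78.1, 75 and 86.1 CPM in SNI males, against 54.8, 52 and 52.6 CPM in sham females and 49.4, 53.5 and 53.2 CPM in sham males. The groups did not overlap, and the log2 fold change was 0.52 (SE 0.05, adjusted p = 2.9e-05 by limma). Manba, the beta-mannosidase of the same pathway, had 15.1, 14.6 and 13.9 CPM in SNI females and 15.3, 14.7 and 15.6 CPM in SNI males, against 17.4, 14.8 and 16.1 CPM in sham females and 14.9, 13.8 and 14.7 CPM in sham males. Its groups overlapped, with a log2 fold change of -0.04 and a 95% interval of -0.15 to 0.08.

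Gusb, the beta-glucuronidase that degrades glycosaminoglycans, had 19.4 to 23.2 CPM after SNI and 14.6 to 18.3 CPM after sham, without overlap, and rose by 0.37 (adjusted p = 0.00332 by limma). Hexa encodes the alpha subunit of beta-hexosaminidase and had 50.9 to 59.9 CPM after SNI and 40.8 to 52 CPM after sham, a log2 fold change of 0.25 (adjusted p = 0.0172 by limma). Of its exon bases, 12.8% overlap Tmem202 on the opposite strand, and whether counting used strand is not given in the sources used here. Its call was kept in 7 of 12 fits without 1 library. Naglu, which degrades heparan sulfate, had 9.48 to 14 CPM after SNI and 7.83 to 10.4 CPM after sham; its log2 fold change of 0.31 was not called (adjusted p = 0.137 by limma). The 5 glycosidases that remain, Gaa, Glb1, Neu1, Fuca1 and Gla, had log2 fold changes between -0.02 and 0.14.

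Of the 3 lipid and thioester hydrolases and the 3 lipid transfer and activator proteins among the 37 genes, 0 were called. With 1.94% of all genes called higher and 0.131% lower, this count is near the background and is no result about them. Outside the 37 genes, the phospholipase gene Pla2g15 rose. The hydrolases Asah1 (acid ceramidase), Lipa (acid lipase) and Ppt1 (palmitoyl-protein thioesterase) had log2 fold changes of 0.05, 0.04 and -0.01. The cholesterol carriers Npc1 and Npc2 had values of -0.03 each. Psap encodes prosaposin, the precursor of the activator proteins of sphingolipid breakdown, and was the most abundant of the 37 genes per length. Psap had 1470.8, 1494.0 and 1589.7 CPM in SNI females and 1523.1, 1632.0 and 1627.6 CPM in SNI males, against 1505.7, 1451.1 and 1553.1 CPM in sham females and 1485.2, 1473.1 and 1489.5 CPM in sham males. The groups overlapped, and the log2 fold change was 0.06, with a 95% interval of -0.03 to 0.15.

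Of the 6 membrane proteins, Laptm5 and Cd68 rose. Laptm5 had 30.5, 45.3 and 48.7 CPM in SNI females and 51.4, 55.2 and 64.7 CPM in SNI males, against 24.8, 21.9 and 21.2 CPM in sham females and 21.2, 24.6 and 23.6 CPM in sham males. The groups did not overlap, and the log2 fold change was 1.07 (SE 0.11, adjusted p = 1.6e-04 by limma). Cd68 had 6.65, 8.39 and 7.94 CPM in SNI females and 10, 10.1 and 9.51 CPM in SNI males, against 6.55, 5.17 and 5.24 CPM in sham females and 4.88, 5.98 and 5.0 CPM in sham males. SNI female replicate 1 stood just above the highest sham library, and the log2 fold change was 0.67 (SE 0.09, adjusted p = 4.2e-04 by limma).

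Lamp1 and Lamp2, the major glycoproteins of the lysosomal membrane in most cells, were not called. Lamp1 had 419.0, 458.8 and 507.5 CPM in SNI females and 492.9, 537.9 and 573.1 CPM in SNI males, against 503.7, 466.3 and 504.4 CPM in sham females and 490.5, 482.1 and 499.8 CPM in sham males. The SNI libraries reached both below and above the sham range. The log2 fold change of Lamp1 was 0.01 (95% interval -0.10 to 0.12) and that of Lamp2 was 0.01 (95% interval -0.09 to 0.10). Of the exon bases of Lamp1, 9.31% overlap Grtp1 on the opposite strand. Scarb2, the receptor that carries beta-glucocerebrosidase to the lysosome, was at -0.003, and Cd63, a tetraspanin of late endosomes, at 0.11. Of the 50-base words of the Cd63 transcript, 38.2% also occur in other genes, with the pseudogene Cd63-ps sharing the most, so its counts are uncertain.

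Grn encodes progranulin, a secreted protein that reaches the lysosome and is processed there. It had 63.9, 78.3 and 76.1 CPM in SNI females and 81.5, 92.8 and 96.7 CPM in SNI males, against 51.6, 50.7 and 52.6 CPM in sham females and 47.9, 51.1 and 46.6 CPM in sham males. The groups were separated by more than the whole sham range, and the log2 fold change was 0.69 (SE 0.06, adjusted p = 4.5e-06 by limma). Tfeb had a log2 fold change of 0.01, with a 95% interval of -0.19 to 0.21.

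In all, 7 of the 37 genes had no overlap between the 6 SNI and the 6 sham libraries of the ipsilateral side, all higher after SNI: Ctss, Ctsz, Gusb, Man2b1, Laptm5, Cd68 and Grn. Over all genes tested 1.24% had no such overlap in that direction. The 13 called genes' median coefficient of variation was 11.5% among SNI and 7.21% among sham libraries. For the genes not called it was 6.77% and 5.65%. SNI female replicate 1 was the lowest SNI library for 10 of the 13 called genes. It also had the lowest microglia marker sum of that group, 775.6 CPM against 970.2 to 1216.5 CPM in the other 5. That library was lowest as well for the sums of astrocyte (4920.2 CPM), oligodendrocyte (18818.4 CPM) and pan-neuronal (5754.2 CPM) markers. The same held for endothelium (122.0 CPM), Schwann cells (786.1 CPM), motor neurons (92.3 CPM), red blood cells (56.4 CPM) and neutrophils (1.81 CPM). Its border macrophage and monocyte sum, 25.1 CPM, was not the lowest. Leaving out each of the 12 ipsilateral libraries in turn gave 10 to 13 called genes, and without SNI female replicate 1 all 13 log2 fold changes were larger.

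Libraries with title numbers 49 to 56 had 75.4% to 76.1% of their reads on genes and those titled 33 to 48 had 71.4% to 74.7%; the labels do not say whether these ranges were processed apart. With the title range as a term in the model 11 of the 13 genes were called, with Ctsc and Lgmn lost. Within the libraries titled 33 to 48, 3 SNI and 5 sham on the ipsilateral side, Ctss (1.33), Grn (0.61) and Man2b1 (0.48) were called, and the log2 fold changes of the 13 genes ran from 0.16 to 1.33. The range 49 to 56 held 3 SNI libraries and 1 sham library of this side, too few for a test.

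**Figure D3:**
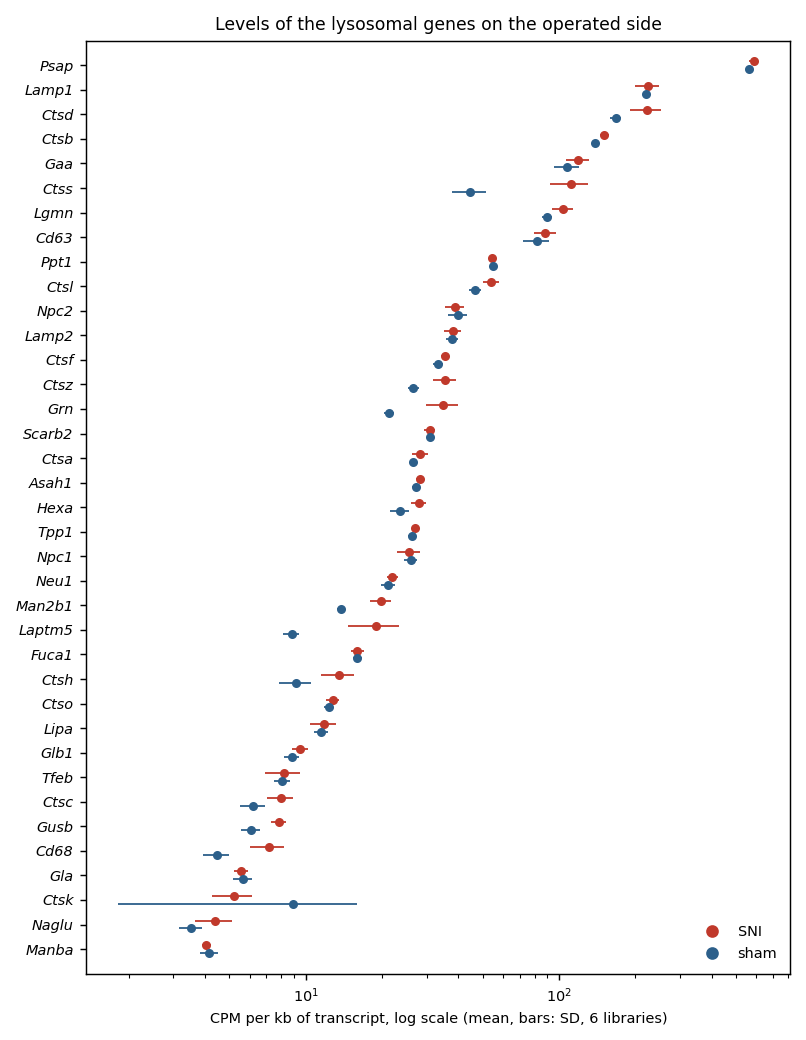
Mean level of each lysosomal gene in CPM per kb of transcript on a log axis, for ipsilateral SNI and sham libraries (bars: SD, n = 6 each), ordered by the SNI mean. Psap leads with 585.7 and 561.9 CPM per kb, Ctss is sixth in SNI libraries with 111.1 against 44.6 CPM per kb in sham, and the sham SD of Ctsk reflects 1 library.

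By level per length, Psap led with 585.7 CPM per kb in SNI and 561.9 CPM per kb in sham libraries. Lamp1 (223.5 and 220.3 CPM per kb in SNI and sham) and Ctsd (221.5 and 167.4 CPM per kb) followed, then Ctsb (150.9 and 138.1 CPM per kb) and Gaa, the acid alpha-glucosidase (118.4 and 107.3 CPM per kb). In SNI libraries Lamp1 and Ctsd did not differ beyond their SDs. The order of the 5 highest genes was the same in both groups. Ctss, at rank 6 in SNI and 10 in sham libraries, was above Lgmn, Cd63, Ppt1 and Ctsl in SNI libraries and below them in sham libraries, by less than the SD of either gene in the case of Lgmn in SNI and of Ctsl in sham libraries.

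Libraries of each sex were also compared on their own. In females 4 lysosomal genes rose: Ctss (log2 fold change 1.25), Laptm5 (0.85), Grn (0.49) and Man2b1 (0.42), against 0.403% of all genes called higher. In males 11 rose, against 1.95% of all genes. These were the 13 called over both sexes less Ctsc and Hexa, with log2 fold changes of 1.37 for Ctss, 1.29 for Laptm5, 0.89 for Cd68, 0.89 for Grn and 0.25 to 0.66 for the others. The count that fell was 0 in females, against 0.0114% of all genes, and 0 in males, against 0.108%. The difference between the female and the male effect was called for 0 of the 37 genes and for 0% of all genes by limma, with 6 of the 37 and 1793 of all genes at an unadjusted p under 0.05. With voom weights 0 of the 37 were called as well. The 6 were Cd68 (female minus male -0.45), Naglu (-0.43), Grn (-0.40), Glb1 (-0.30), Ctsd (-0.29) and Lipa (-0.26), with adjusted p of 0.431 to 0.465 by limma.

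The female effect was below the male effect for 32 of the 37 genes, with a median difference of -0.13, against -0.001 over all genes. The microglia marker sum was 775.6, 1080.1 and 970.2 CPM in SNI females and 1116.2, 1058.5 and 1216.5 CPM in SNI males. The ipsilateral motor neuron marker sum was 92.3, 195.7 and 143.9 CPM in SNI females and 380.8, 334.4 and 376.1 CPM in SNI males, without overlap. The female effect was below the male effect for 8 of 8 motor neuron markers, with a median difference of -1.75 and 4 at an unadjusted p under 0.05, and for 6 of 6 endothelial markers, with a median of -0.32. It was above the male effect for 1 of 17 microglia markers (median -0.19) and 0 of 6 Schwann cell markers (median -0.19). That count was 0 of 8 for oligodendrocytes (-0.145), 2 of 8 for pan-neuronal markers (-0.14) and 4 of 8 for astrocytes (-0.04). It was 0 of 7 for neutrophils (-2.53), 2 of 11 for border macrophages and monocytes (-0.46) and 1 of 5 for red blood cells (-0.26). With the motor neuron level as a covariate, an alternative chosen after seeing the data, the female effect on the lysosomal genes was below the male effect for 26 of the 37, with a median difference of -0.09 and 1 gene at an unadjusted p under 0.05. In that fit 0 lysosomal genes were called in females (33 of all genes were called higher and 0 lower) and 11 in males. Within females, 0 of 8 motor neuron markers had a positive SNI effect, with a median log2 fold change of -1.68. The covariate thus went largely with surgery in females, and this fit cannot separate it from the SNI effect there. The part of each cell type in the sex difference was not tested.

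The title ranges were also unequal between the sexes: 2 of 3 SNI males and 0 of 3 sham males were titled 49 to 56, against 1 of 3 SNI females and 1 of 3 sham females. With the title range as a term, also added after seeing the data, 3 lysosomal genes were called in females, with Laptm5 lost, and 8 in males, with Ctsh, Lgmn and Gusb lost. The female effect was below the male effect for 32 of the 37 genes in that fit as well, with a median difference of -0.11. The counts called within a sex rested on few libraries: leaving out 1 ipsilateral library gave 1 to 6 genes in females and 7 to 12 in males. Without SNI female replicate 2, or without SNI female replicate 3, Ctss was the only lysosomal gene called in females.

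**Figure D4:**
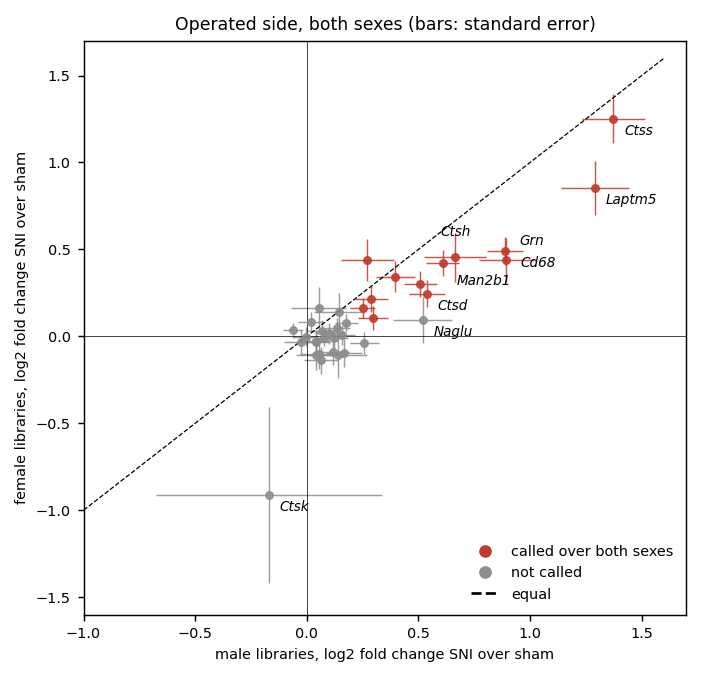
Log2 fold change of SNI over sham on the ipsilateral side in female libraries (vertical) and male libraries (horizontal) for the 37 lysosomal genes, with standard errors and a dashed line of equal effects (3 SNI and 3 sham libraries in each sex). The 13 genes called over both sexes, in red, are above 0 in both, 12 of them below the line; Ctsk has the widest bars.

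On the contralateral side 0 of the 37 genes were called between SNI and sham by limma, as were 0% of 17580 genes tested, with 0 of the 37 and 336 of all genes at an unadjusted p under 0.05. With voom weights the count of the 37 was 0 as well. The median log2 fold change of the 37 was 0.03, and the values ran from -0.17 for Ctsk to 0.14 for Laptm5. Contralateral Ctss had 41.6, 49.2 and 44.2 CPM in SNI females and 49.2, 50.7 and 55.5 CPM in SNI males, against 53.7, 47.2 and 43.6 CPM in sham females and 47.6, 51.5 and 45.9 CPM in sham males. These groups overlapped throughout, and the log2 fold change of contralateral Ctss was 0.004 (SE 0.06).

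Within the SNI mice the ipsilateral side exceeded the contralateral side in 15 of the 37 genes, against 3.56% of all 18058 genes tested, and 0 were lower, against 3.29%. These were the 13 genes above with Naglu (0.38) and Cd63 (0.32). The calls of Lgmn, Cd63 and Naglu were each lost in some fits that left out an SNI library. Lgmn also lost its call with another scaling between libraries (median of ratios). Ctss differed most between the sides, by 1.62 on the log2 scale (SE 0.09, adjusted p = 6.1e-11 by limma), then Laptm5 by 1.22 and Cd68 by 0.91. The ipsilateral libraries stood above the contralateral libraries without overlap for 10 genes, the 7 named above with Ctsh, Ctsl and Hexa, against 1.42% of all genes. This comparison and the one with sham share the ipsilateral SNI libraries. The microglia markers were higher on the ipsilateral side of SNI mice for 17 of 17, with a median difference of 1.34. Of the motor neuron markers 3 of 8 were lower (median -1.29), as were 2 of 8 pan-neuronal markers (Snap25 and Nefl), while 1 of 8 astrocyte markers (Gfap) and 1 of 6 Schwann cell markers (Ngfr) were higher. With the motor neuron level as a covariate 13 of the 15 lysosomal genes were called, with Naglu and Cd63 lost. That level itself differed between these sides, and the part of these cell types was not tested. The labels do not say which ipsilateral and contralateral libraries came from the same mouse, so the sides were compared as separate groups.

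In sham mice 0 of the 37 genes were called between the sides by limma, as were 0% of all genes, with 9 of the 37 and 742 of all genes at an unadjusted p under 0.05; the count of the 37 with voom weights was 0 too. Each of the 13 genes had a positive difference here, among them Cd68 at 0.35, Ctss at 0.31 and Laptm5 at 0.29. Laptm5 and Cd68 had no overlap, with every ipsilateral sham library above every contralateral sham library. How many of all genes had no such overlap between the sham sides was not counted, so this is no result about these genes. The microglia markers were positive here for 17 of 17, with a median of 0.25 and 15 at an unadjusted p under 0.05, and the neutrophil markers for 7 of 7, with a median of 1.29 and 0 at an unadjusted p under 0.05. Their part in the sham side difference was not tested.

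Tested directly, the side difference after SNI was larger than that after sham for 5 of the 37 genes, against 0.631% of all genes, and smaller for 0, against 0.00554%. They were Ctss (1.31, SE 0.12, adjusted p = 1.9e-06), Laptm5 (0.93, SE 0.16, adjusted p = 0.00384), Grn (0.60, SE 0.08, adjusted p = 1.9e-04), Man2b1 (0.47, SE 0.07, adjusted p = 3.7e-04) and Gusb (0.34, SE 0.08, adjusted p = 0.0282), all by limma. The count ran from 4 to 8 when each of the 24 libraries was left out in turn, with 8 without SNI ipsilateral female replicate 1 and without SNI contralateral male replicate 3. Ctss, Laptm5, Grn and Man2b1 were called in all 24 of these fits, and Gusb lost its call in 13 of them and with the motor neuron level as a covariate.

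**Figure D5:**
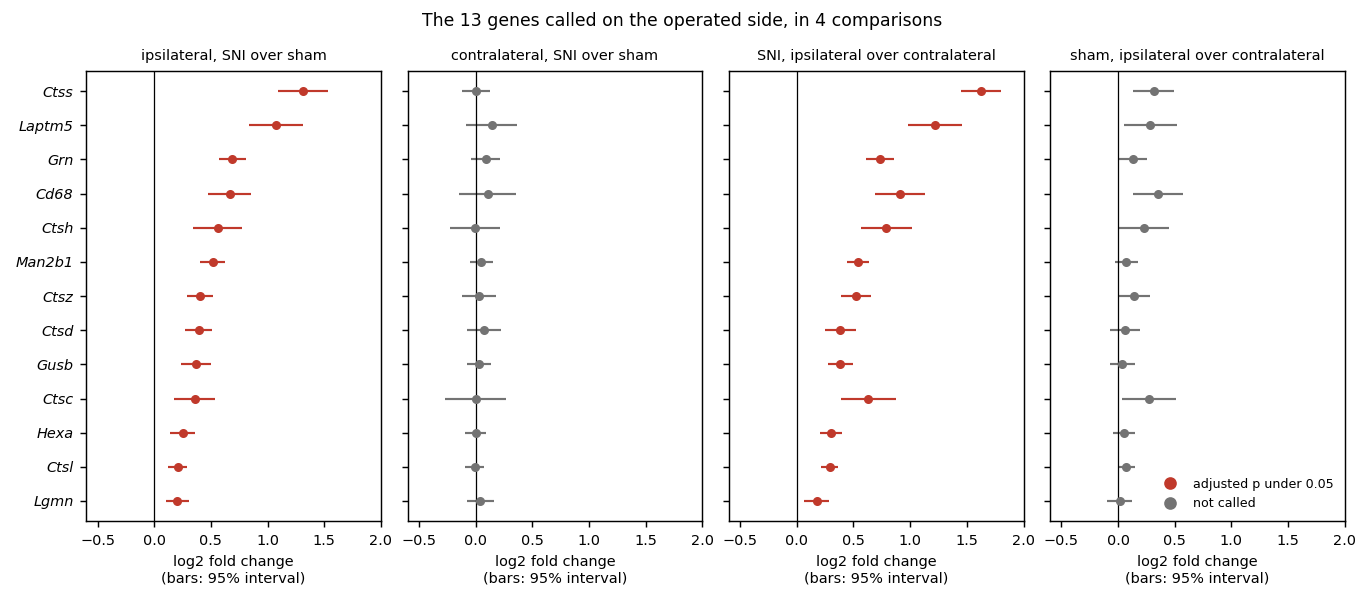
Log2 fold changes with 95% intervals of the 13 lysosomal genes called on the ipsilateral side, in 4 comparisons of 6 against 6 libraries each. All 13 are called (red) in both comparisons that hold ipsilateral SNI libraries, Ctss at 1.31 and 1.62, and 0 are called in the contralateral and the sham comparison.

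The lysosomal machinery outside the 37 genes was described from a list of 76 further genes, of which 74 were tested. On the ipsilateral side 7 of the 74 rose after SNI, against 1.94% of all genes, and 0 fell, against 0.131%, with a median log2 fold change of 0.03. Of 23 further hydrolases 4 rose, among them Dnase2a (0.57), which degrades DNA, the phospholipase gene Pla2g15 (0.31) and the carboxypeptidase gene Scpep1 (0.20). Of 18 channels and transporters 2 rose, the peptide transporter Slc15a3 (0.78) and Slc11a1 (0.75), the metal transporter of phagosomes. Of 4 cathepsin inhibitors 1 rose, Cst7 (cystatin F), at 0.336 to 0.70 CPM after SNI and 0.0643 to 0.184 CPM after sham, with a log2 fold change of 1.63. At this low level Cst7 passed the filter through its SNI libraries.

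Subunits of the proton pump that acidifies the lysosome were not called (0 of 16, median log2 fold change -0.06), nor were genes of delivery to the lysosome such as mannose 6-phosphate receptors (0 of 11, median 0.03) or the Tfeb relatives Tfe3 and Mitf (0 of 2). With 1.94% of all genes called higher and 0.131% lower, a count of 0 in lists of these sizes is near the background and is no result about them.

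The ipsilateral microglia markers had a median log2 fold change of 1.11 and ran from 0.23 (Sall1, not called) to 1.42, and the 13 called lysosomal genes ran from 0.20 to 1.31. Of the lysosomal genes 11 lay within the range of all 17 markers, with Ctsl and Lgmn below it, and Ctss and Laptm5 lay within the narrower range of the 16 called markers, which began at 0.75. What share of each lysosomal gene's RNA came from microglia was not tested.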

How the data were processed

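The deposited files hold raw read counts per gene and library; per the submitters' processing notes, the authors aligned reads with STAR to GRCm38 (mm10) for mouse. The counting program and its strand setting are unknown here. Per the labels' protocols, RNA came from dorsal horn tissue, and libraries were made from cDNA. The entries that name no gene stayed out of all totals: in the files, reads on no gene made up 12.3% to 15.8%, reads mapped to several places 9.92% to 12.8% and ambiguous reads 0.370% to 0.418% of each library.

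Gene names, positions and transcript lengths came from GENCODE M21 (GRCm38), which matched 40254 of 41388 identifiers. Genes entered if a number of libraries no smaller than the smallest group reached about 10 counts (scaled to a library of median size) and the total reached 15; they were scaled by TMM (trimmed mean of M-values) and converted to log2 CPM with a prior count of 2. limma 3.58.1 in R 4.3.3, with a mean-variance trend and robust moderation, tested each comparison over groups of surgery, side and sex, two-sided, with Benjamini-Hochberg adjustment over all genes. The steps were tested on simulated counts with an equal spread setting for all genes and no differences in sex, title range or cell content. That test does not check the calls in these libraries. CPM printed here is without the prior count, and CPM per kb divides it by transcript length. limma on log2 CPM took the place of a negative-binomial count test, which was not run. Mouse promoters were not analysed here. Same-group libraries differed by more than sampling noise (chi-square per degree of freedom 6.50 to 33.9 over 24 pairs), that is, by more than repeated sequencing of the same library would give. Each was treated as 1 replicate. This check cannot tell whether libraries came from separate animals, which the labels do not say.

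The gene list, the further lists and the comparisons were chosen with earlier results of these data known. Values in every library are given for the 8 called genes with the largest log2 fold changes, the 2 genes highest per length among those not called and the 2 with the lowest log2 fold changes; the lists of 76 further lysosomal genes and of cell markers are summarised by counts, and called lysosomal genes among them are named, except 1 that is not reported here. Schwann cell, endothelial and red blood cell markers were also read: 1 of 6 (Ngfr), 0 of 6 and 0 of 5 were called on the ipsilateral side. The red blood cell markers were all lower after SNI (median -0.88, 4 of 5 at an unadjusted p under 0.05), as were the 7 neutrophil markers (median -1.44, 0 at an unadjusted p under 0.05); their part in the results was not tested beyond leaving out the sham libraries highest in them. Alternatives changed the scaling, the filter, the prior count, the weights, the moderation, the libraries and the covariates.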

Additional observations from a re-analysis of the deposited data

Results flagged for a closer look

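In 6 of 148 sets of 6 libraries (37 genes, 4 combinations of surgery and side) the highest or lowest library stood apart from the rest by Dixon's criterion, where chance gives about 1 in 20. Ctsk reached 35.2 CPM in sham ipsilateral female replicate 1, with the next library at 10.2 CPM. Ctsh reached 19 CPM in sham ipsilateral male replicate 2, with the next at 15 CPM. Scarb2 reached 152.9 CPM in sham ipsilateral male replicate 3. Lamp2 reached 148.0 CPM in SNI contralateral female replicate 2 and 146.7 CPM in sham contralateral female replicate 1. Ctsb was lowest in sham contralateral male replicate 1, at 600.7 CPM, with the next at 654.1 CPM. The side difference after SNI exceeded that after sham, as tested in 1 model, for Ctss by 1.31, Laptm5 by 0.93, Grn by 0.60, Man2b1 by 0.47 and Gusb by 0.34 on the log2 scale.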

How the results depend on the processing

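The count of 13 genes on the ipsilateral side was 10 to 13 when each library was left out, and 11 to 14 under the other settings tried, except with the libraries titled 33 to 48 only, where it was 3 with fewer samples (3 SNI, 5 sham). Ctss, Man2b1 and Grn were called under every setting, and Ctsh, Ctsz, Ctsd, Ctsl, Gusb, Laptm5 and Cd68 without each library. Hexa kept its call in 7 of 12 such fits, Ctsc in 3 and Lgmn in 2. Ctsb was called with total counts in place of TMM. Without the libraries highest in neutrophil and red blood cell markers (sham female replicate 1 and sham male replicate 1), an alternative chosen after seeing the data, 11 were called, with Ctsc and Ctsh lost. Leaving out 1 library gave 1 to 6 genes in females against 4, with 1 without SNI replicate 2 or 3 and 2 without sham replicate 2 or 3; 7 to 12 in males against 11, with 7 without sham replicate 1, sham replicate 3 or SNI replicate 3; and 4 to 8 in the interaction against 5. With the motor neuron level as a covariate, chosen after seeing the data for these comparisons, 0 were called in females and 11 in males. In females that level went largely with surgery, so this fit cannot set it apart from the SNI effect. Between the sides of SNI mice, leaving out 1 SNI library gave 12 to 15 genes called higher, and the calls lost were those of Lgmn, Cd63 and Naglu. The count called lower in these fits was 0 to 1, the 1 being Manba without SNI contralateral female replicate 1. With the title range as a term 16 were called between the sides, with Ctsb gained. No gene named here changed direction past the threshold. No paired analysis was possible because the labels name no animals and give the groups no common replicate numbers. The number of libraries limits the precision, and for low genes such as Cst7 the counts do as well.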
